A study of Homo sapiens with 24 samples.

Results

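The genes described here encode the initiation and elongation factors of cytoplasmic translation, with the kinases, inhibitors and methyltransferases named after them. They were chosen by name as the protein-coding genes whose symbol begins with EIF1 to EIF6, EEF1 or EEF2, without the Y-linked gene of the eIF1A pair. The rule found 68 genes among the 57820 in the deposited gene table, and no measured value entered it. They were measured by stranded mRNA sequencing in 8 groups of 3 libraries from HUES6 cells, an established line of human embryonic stem cells kept in FTDA medium. The groups were RBPMS knockout (RBPMS KO, here KO) cells and wild-type (WT) cells, each untreated (0 h) and after 3, 6 and 48 h of mesoderm induction with 1.5 ng/ml BMP4, a growth factor, and 1.5 µM CHIR, which inhibits the kinase GSK3 and so activates WNT signalling. RBPMS encodes an RNA-binding protein. The labels name neither the number of KO clones nor separate cultures behind the 3 libraries of a group, and the p-values therefore measure the spread between libraries, which may be technical.

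To start a protein, eIF2 carries the initiator tRNA to the small ribosomal subunit, where eIF1, eIF1A and eIF3 hold the complex ready to scan. The cap-binding protein eIF4E, the scaffold eIF4G and the RNA helicase eIF4A, together eIF4F, bring the mRNA. At the start codon eIF5 makes eIF2 hydrolyse its GTP, eIF5B joins the large subunit, and eIF2B recharges eIF2. In elongation eEF1A delivers aminoacyl-tRNA and is recharged by the eEF1B complex, eEF2 moves the ribosome on, and eIF5A relieves stalls. In mouse embryonic stem cells protein synthesis is known to be low and to rise on differentiation, and eIF4G2 is known to be needed for human and mouse stem cells to differentiate.

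The libraries held 29896358 to 50451908 reads in genes, recovered from the deposited CPM (reads per 1000000 reads in genes). WT library 1 at 0 h, KO library 3 at 3 h and WT library 3 at 48 h stood apart from their mates, with r of at most 0.978, 0.989 and 0.991 across genes against 0.995 or more between the other mates. Of all libraries, WT library 1 at 0 h was nearest to KO library 3 at 0 h (r 0.987), not to a WT library. The reason was not tested. KO library 3 at 3 h and WT library 3 at 48 h were each nearest to a mate. RBPMS mRNA ranged over 153 to 158 CPM in KO libraries at 0 h, against 121 to 155 CPM in WT libraries, and its level does not check the KO label. The imprinted RNA MEG3 was at 890.2 to 998 CPM in KO libraries at 0 h and 226 to 240.4 CPM at 48 h, but at 0.0214 to 0.1003 CPM in KO libraries at 3 and 6 h. In WT libraries MEG3 was at 82.2 to 1104 CPM throughout. Whether the KO libraries of different hours share an origin was not tested. The 6 stem cell markers summed to 8212 to 8609 CPM in KO cells and 7380.2 to 8228 CPM in WT libraries at 0 h, and to 6383 to 6536 CPM in KO cells and 4849 to 5133 CPM in WT libraries at 48 h. The 5 mesoderm markers summed to 4.81 to 4.98 CPM in KO cells and 2.50 to 5.67 CPM in WT libraries at 0 h, and to 1019 to 1143 CPM in KO cells and 1647 to 1839 CPM in WT libraries at 48 h. In between, the mesoderm sum was 96.0 to 119 CPM in KO and 87.6 to 90.3 CPM in WT libraries at 3 h. At 6 h it was only 13.5 to 15.6 CPM in KO and 14.8 to 15.7 CPM in WT libraries. The stem cell sum at 6 h was 6459 to 6723 CPM in KO and 6903 to 7339 CPM in WT libraries. The 2 endoderm markers summed to 84.0 to 94.2 CPM in KO cells and 50.6 to 63.3 CPM in WT libraries at 48 h and to at most 0.239 CPM before, and the 2 neuroectoderm markers to at most 0.618 CPM. The 5 fibroblast markers summed to 228 to 816 CPM, with 2 of them under 0.1 CPM in every group, and in WT libraries at 0 h their sum ran from 411 to 816 CPM. In such bulk RNA, fewer cells of a type and less RNA per cell cannot be told apart, and the part of these markers in the results was not tested.

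Together the 68 genes took 3.21% to 4.28% of the reads of a library, and EEF1A1 alone took 42.9% to 57.7% of their reads. The highest total was in WT library 1 at 0 h, 42752 CPM, against 32339 and 32778 CPM in its mates. CPM values are given as deposited, while log2 changes come from CPM divided by scaling factors. Divided by the length of the principal transcript, the mean level over the 8 groups was 3998 CPM per kb for EEF1A1, 877 for EEF2, 670.1 for EIF4G2, 466 for EIF5A and 439 for EEF1B2. The length used was that of the longest transcript annotated as principal, for EIF4G2 only 1969 of its 8655 exon bases. Levels per kb, their order and the paralog shares below depend on this choice, and the transcripts used in these cells were not measured. The lowest levels per kb of the tested genes were those of EIF5AL1 (0.133), EIF3CL (0.17), EIF4E1B (0.522) and EIF2S3B (0.595). Of the 68 genes, 38 averaged at least 100 CPM and 9 averaged under 5 CPM. The filter on low counts removed 2 genes, EEF1G and the readthrough gene EEF1E1-BLOC1S5, and 66 were tested. In the GENCODE 29 annotation 99.9% of the exon bases of EEF1G, and all those of EEF1E1-BLOC1S5, also belong to another gene on the same strand. The same holds for 73.4% of the bases of EIF4EBP3, 48.6% of EIF4A1 and 41.1% of EIF3L, and EIF3C and EIF3CL, EIF5A and EIF5AL1, and EIF2S3 and EIF2S3B are near-identical pairs. The values of these genes are therefore uncertain, and the counted level of EIF4A1, the main eIF4A helicase, was 2.50 to 14.5 CPM over all libraries.

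During the first hours of induction the translation factors split into a larger group that rose and a smaller one that fell, in both genotypes. At 6 h against 0 h, 37 of the 66 genes rose and 18 fell in KO cells, and 32 rose and 16 fell in WT cells. Here a gene is said to rise or fall when its adjusted p in limma, over all 19835 genes tested, was under 0.05, and a log2 change is given with its standard error (SE) as later hour minus 0 h or KO minus WT. Of all genes, 35.5% rose and 33.4% fell in KO cells at 6 h, and 33.2% rose and 29.2% fell in WT cells. At 3 h, 33 rose and 17 fell in KO cells (34.8% and 30.9% of all genes), and 31 rose and 13 fell in WT cells (30.3% and 25.3%). The median log2 change of the 66 genes at 6 h was 0.35 in KO and 0.28 in WT cells, against 0.03 and 0.04 for all genes. With CPM as deposited, without scaling factors, the median of all genes at 6 h moved by -0.12 in KO and -0.15 in WT cells and at 3 h by -0.12 in WT cells, and the WT counts, each change being tested against 0, were 24 higher and 22 lower at 6 h and 22 and 19 at 3 h. The median of the 66 genes at 6 h then lay 0.30 above that of all genes in KO and 0.21 above it in WT cells, against 0.32 and 0.24 with scaling factors. With RLE factors the WT counts at 3 h were 25 higher and 17 lower.

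With all libraries, across the 4 early comparisons (3 and 6 h, KO and WT), 26 genes rose in all, 11 fell in all and 8 were not called in any. None rose in some and fell in others. These comparisons share the 0 h libraries of each genotype, so they are not independent. Without WT library 1 at 0 h, EIF4EBP2 was called lower in WT cells at 6 h and EIF4E at 3 h. With all libraries these 2 genes were called higher in KO cells, EIF4EBP2 at 3 h and EIF4E at 6 h. At 48 h against 0 h, 18 genes were higher and 10 lower in KO cells (30.2% and 24.4% of all genes), and 12 were higher and 16 lower in WT cells (29.3% and 25% of all genes). Of the 26 genes that rose in all early comparisons, 6 were still higher at 48 h in both genotypes (EIF1AD, EIF2B1, EIF4A3, EIF4ENIF1, EIF4G2 and EIF5). Among the 44 and 48 calls of WT cells at 3 and 6 h, 33 and 41 held whichever library of the compared groups was left out, and among the 50 and 55 of KO cells 42 and 47 did. At 48 h 23 of 28 held in KO and 18 of 28 in WT cells. Another 3 of the 26 were below their 0 h level at 48 h in a genotype: EIF2AK3 in KO cells (-0.29 ± 0.11), and EIF3B (-0.37 ± 0.11) and EIF3M (-0.52 ± 0.09) in WT cells. The call of EIF2AK3 was lost without KO library 2 or 3 at 48 h or KO library 1 or 2 at 0 h (adjusted p 0.0735 to 0.0943), and that of EIF3B without WT library 2 at 0 h (adjusted p 0.0619). Of the 11 that fell early, 5 were still lower in both at 48 h (EEF2K, EIF2AK4, EIF4A2, EIF4E1B and EIF4E3).

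**Figure D1:**
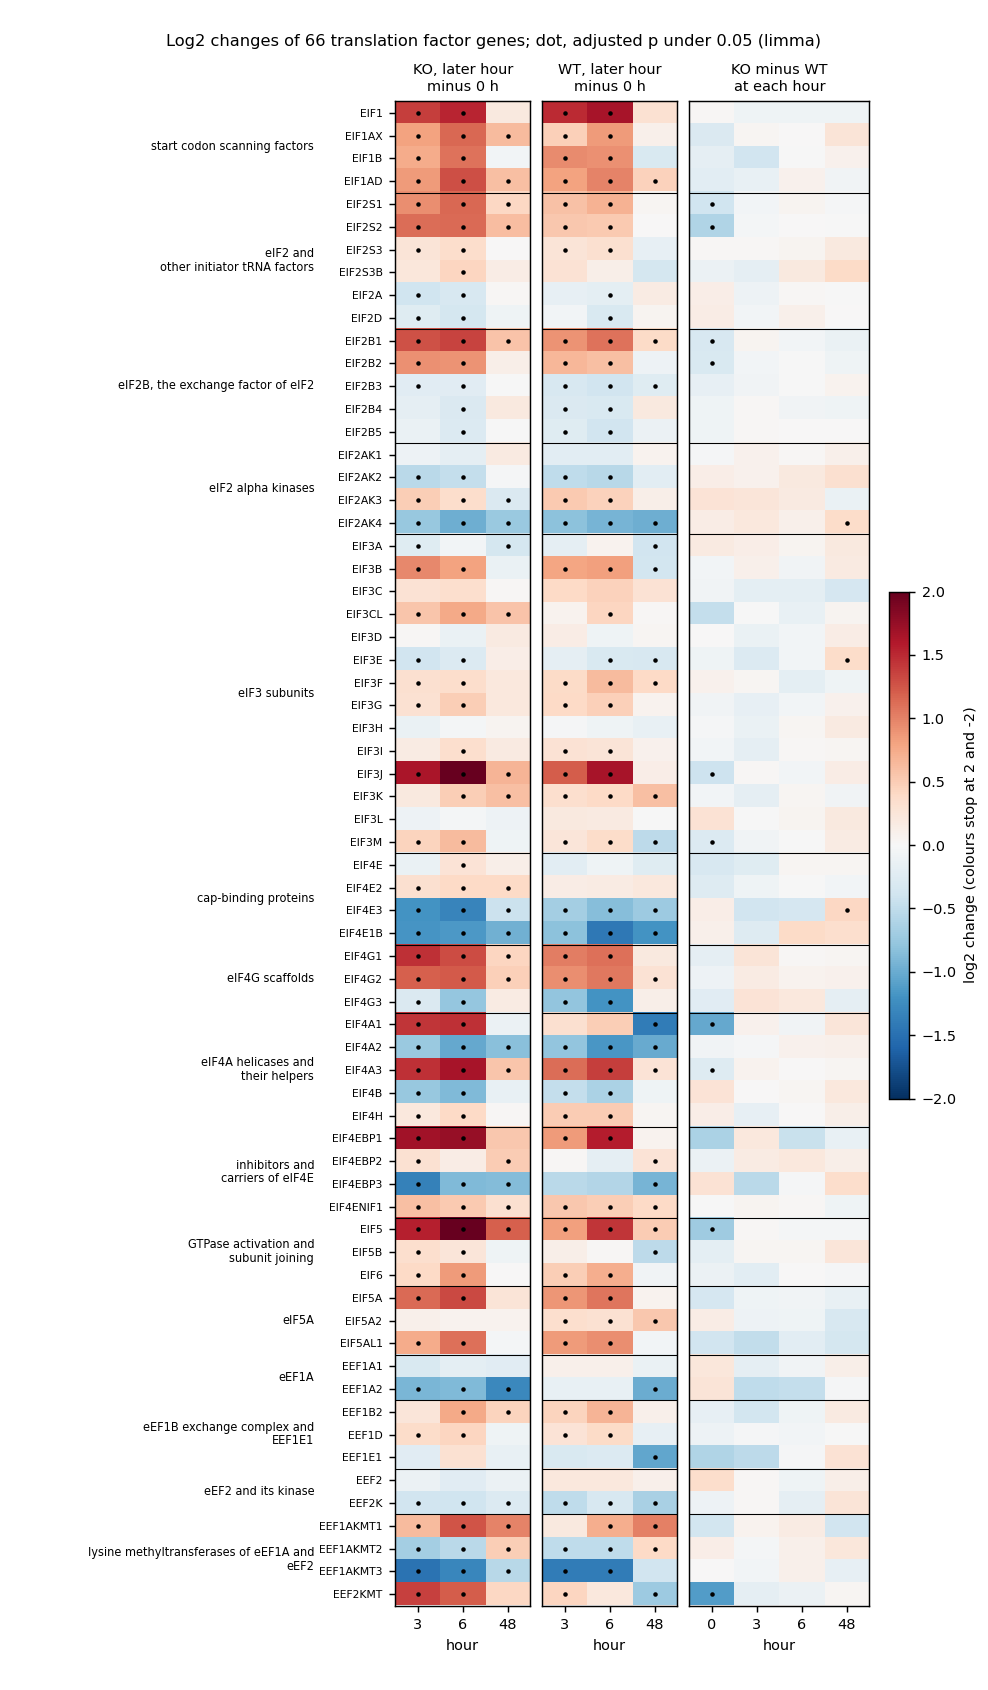
Log2 changes of the 66 tested genes (rows, grouped by factor) for each later hour minus 0 h in KO and in WT cells, and for KO minus WT at each hour (columns); red is higher, blue is lower, and a dot marks an adjusted p under 0.05 in limma. EIF3J and EIF5 have the largest rises at 6 h in KO cells, 2.01 and 2.11, and the KO minus WT columns hold 10 dots at 0 h, none at 3 and 6 h, and 3 at 48 h.

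The genes named after eIF1 and eIF1A rose early. All 4 genes of this group, in which EIF1AD was placed by its name, rose at 3 and 6 h in both genotypes. EIF1 (chr17:41688885-41692668, plus strand, hg38), which keeps the scanning ribosome from stopping at the wrong codon, was at 253, 288 and 319 CPM at 0 h, 772, 804 and 545 at 3 h, 759, 771 and 705 at 6 h and 317, 320.2 and 322 at 48 h in KO libraries. It was at 304, 285 and 273 CPM at 0 h, 718, 729 and 751 at 3 h, 741, 831 and 792 at 6 h and 313, 330.2 and 405 at 48 h in WT libraries. Every library at 3 and 6 h was above every library at 0 h, and KO library 3 at 3 h was the lowest of the early libraries. The log2 change at 6 h was 1.53 ± 0.13, adjusted p = 6.12e-10 in KO cells and 1.64 ± 0.13, adjusted p = 3.32e-10 in WT cells, and at 48 h it was 0.19 ± 0.13 in KO and 0.30 ± 0.13 in WT cells, neither called. EIF1AX encodes an eIF1A, which works beside eIF1 on the small subunit, and was at 306, 305 and 298 CPM at 0 h, 529, 548 and 411 at 3 h, 608, 602 and 608 at 6 h and 474, 466 and 442 at 48 h in KO libraries. It was at 319.9, 429 and 393 CPM at 0 h, 477, 467 and 485 at 3 h, 596, 593 and 613 at 6 h and 419, 431 and 347 at 48 h in WT libraries. At 0 h the KO libraries were all below the WT libraries, of which library 1 was the lowest, and EIF1AX changed by 1.14 ± 0.11 in KO and 0.85 ± 0.11 in WT at 6 h. At 48 h EIF1AX was higher in KO cells (0.63 ± 0.11, adjusted p = 3.65e-05) and not called in WT cells (0.10 ± 0.11). EIF1AD, a protein with a domain like that of eIF1A, was at 25.5 to 26.5 CPM at 0 h, 38.7 to 46.9 at 3 h, 54.4 to 59.6 at 6 h and 37.6 to 39.8 at 48 h in KO libraries. It was at 29.5 to 32.6 CPM at 0 h, 46.6 to 49.6 at 3 h, 52.9 to 55.2 at 6 h and 40.4 to 42.6 at 48 h in WT libraries. It was higher at every later hour in both genotypes. EIF1B, a close relative of EIF1, changed by 1.09 ± 0.16 in KO and 0.92 ± 0.16 in WT at 6 h.

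All 3 subunits of eIF2 rose at 3 and 6 h in both genotypes. EIF2S1 encodes the alpha subunit, which the stress kinases phosphorylate. It was at 89.1 to 95.8 CPM at 0 h, 142 to 184 at 3 h, 180.0 to 190.1 at 6 h and 119.5 to 123 at 48 h in KO libraries. It was at 112 to 139 CPM at 0 h, 166 to 173 at 3 h, 176 to 180.1 at 6 h and 118 to 142 at 48 h in WT libraries. Its log2 change at 6 h was 1.14 ± 0.10 in KO and 0.70 ± 0.10 in WT. EIF2S2, the beta subunit (chr20:34088298-34112332, minus strand), was at 163, 171 and 185 CPM at 0 h, 346, 374 and 331 at 3 h, 331, 356 and 345 at 6 h and 263, 261 and 253 at 48 h in KO libraries. In WT libraries it was at 206, 336 and 281 CPM at 0 h, 349, 350.3 and 367 at 3 h, 335, 334 and 355 at 6 h and 255, 259 and 287 at 48 h. The KO libraries at 0 h lay below every other library, and the WT libraries at 0 h were spread widely, with library 1 the lowest. EIF2S2 changed by 1.14 ± 0.12 in KO and 0.53 ± 0.12 in WT at 6 h, and EIF2S3, the gamma subunit that binds GTP and the tRNA, by 0.35 ± 0.08 in KO and 0.33 ± 0.08 in WT. With CPM as deposited EIF2S3 was not called at 3 h in either genotype or at 6 h in WT cells, and its call at 3 h in KO cells was lost without KO library 2 at 3 h (adjusted p 0.0525). EIF2A and EIF2D, which can deliver initiator tRNA by other routes, fell at 6 h in both genotypes, with log2 changes of -0.32 in KO and -0.20 in WT for EIF2A and of -0.35 in KO and -0.30 in WT for EIF2D. The call of EIF2A in WT cells was lost without WT library 1, 2 or 3 at 6 h or WT library 1 or 2 at 0 h (adjusted p 0.0563 to 0.262). 

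The 5 subunits of eIF2B, the exchange factor of eIF2, moved in opposite directions. EIF2B1 (alpha) and EIF2B2 (beta), regulatory subunits, rose at 3 and 6 h in both genotypes. EIF2B1 was at 27.6, 27.8 and 28.04 CPM at 0 h, 58.4, 61.1 and 69.3 at 3 h, 65.997, 65.2 and 62.4 at 6 h and 40.04, 41.4 and 39.9 at 48 h in KO libraries, and at 32.6, 38.6 and 35.5 CPM at 0 h, 61.6, 62.1 and 56.7 at 3 h, 65.9, 66.9 and 66.8 at 6 h and 45.6, 46.9 and 44.3 at 48 h in WT libraries. No early library overlapped the 0 h libraries of its genotype, and the log2 change at 6 h was 1.35 ± 0.07 in KO and 1.09 ± 0.07 in WT. EIF2B3 (gamma), EIF2B4 (delta) and EIF2B5 (epsilon, the catalytic subunit) fell at 6 h in both, between -0.28 and -0.22 in KO and between -0.38 and -0.30 in WT cells. The calls of EIF2B4 were lost without KO library 1, 2 or 3 at 6 h or KO library 2 or 3 at 0 h (adjusted p 0.0542 to 0.123) in KO and without WT library 1, 2 or 3 at 6 h or WT library 2 or 3 at 0 h (adjusted p 0.0579 to 0.203) in WT cells, and that of EIF2B3 in KO cells without KO library 1 at 6 h or KO library 2 or 3 at 0 h (adjusted p 0.065 to 0.0999). At 48 h EIF2B1 remained higher in both genotypes (0.57 ± 0.07 in KO and 0.38 ± 0.07 in WT).

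The 4 kinases of eIF2 alpha did not move as a group. EIF2AK4 (GCN2), which senses uncharged tRNA, fell at every later hour in both genotypes. It was at 259, 247 and 243 CPM at 0 h, 115, 126 and 183 at 3 h, 113, 118 and 112 at 6 h and 147, 145 and 144 at 48 h in KO libraries. It was at 207, 246 and 242 CPM at 0 h, 121, 118 and 117 at 3 h, 108, 103 and 107 at 6 h and 119, 117 and 110.1 at 48 h in WT libraries. All libraries at 0 h were above all later libraries, and KO library 3 at 3 h, one of those that stood apart, was the highest of the later ones. EIF2AK2 (PKR), which senses double-stranded RNA, fell at 3 and 6 h (-0.47 ± 0.12 in KO and -0.55 ± 0.12 in WT at 6 h) and was not called at 48 h. EIF2AK3 (PERK), which senses unfolded proteins in the endoplasmic reticulum, rose at 3 and 6 h (0.49 ± 0.11 in KO and 0.52 ± 0.11 in WT at 3 h), though with CPM as deposited not at 6 h (adjusted p 0.131 in KO and 0.0539 in WT cells). Without KO library 3 at 3 h, its change at 3 h in KO cells was 0.27 ± 0.10 (adjusted p 0.0210 in limma). EIF2AK1 (HRI), the haem-regulated kinase, was not called in any comparison and ranged from 100.2 to 159.8 CPM. 

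Of the 14 genes of eIF3, the largest initiation complex, 8 rose and 1 (EIF3E) fell at 6 h in each genotype. Their levels ranged from 0.17 (EIF3CL) and 3.56 (EIF3C) to 408 CPM per kb (EIF3E), with 11 of the 14 above 50. The call of EIF3E was lost in KO cells whichever of the 6 libraries was left out (adjusted p 0.0536 to 0.107), and in WT cells without WT library 1 or 2 at 6 h or WT library 1 or 2 at 0 h (adjusted p 0.0508 to 0.0822). EIF3J stood out: it encodes a loosely bound subunit that sits in the decoding site of the small subunit. It was at 57.2, 62.7 and 61.7 CPM at 0 h, 179.8, 189 and 161 at 3 h, 224, 224 and 214 at 6 h and 95.6, 95.8 and 93.8 at 48 h in KO libraries. It was at 71.3, 90.98 and 85.6 CPM at 0 h, 172, 170.3 and 176 at 3 h, 231, 219.8 and 232 at 6 h and 92.4, 94.04 and 79.6 at 48 h in WT libraries. All libraries at 3 and 6 h lay above all those at 0 and 48 h, in both genotypes. The log2 change at 6 h was 2.01 ± 0.09, adjusted p = 8.47e-15 in KO cells and 1.65 ± 0.09, adjusted p = 5.51e-13 in WT cells, and at 48 h it was 0.68 ± 0.09, adjusted p = 9.33e-07 in KO cells and 0.13 ± 0.09, not called, in WT cells. EIF3B, a core scaffold subunit, changed by 0.81 ± 0.11 in KO and 0.82 ± 0.11 in WT at 6 h. EIF3A, the largest core subunit, was at 873 to 938 CPM at 0 h, 625 to 909.9 at 3 h, 743 to 822 at 6 h and 684 to 691 at 48 h in KO libraries. It was at 784 to 846 CPM at 0 h, 626 to 668 at 3 h, 729 to 764 at 6 h and 555 to 658 at 48 h in WT libraries. It fell at 48 h in both (-0.35 ± 0.10 in KO and -0.38 ± 0.10 in WT). EIF3K, a small peripheral subunit, was at 149 to 163 CPM at 0 h, 127 to 197 at 3 h, 192 to 210.1 at 6 h and 231 to 235 at 48 h in KO libraries. It was at 157 to 175 CPM at 0 h, 178 to 204 at 3 h, 189 to 200.3 at 6 h and 222 to 299 at 48 h in WT libraries. It was higher at 48 h in both (0.59 ± 0.13 in KO and 0.61 ± 0.13 in WT). With all libraries EIF3C, EIF3D, EIF3H and EIF3L were not called in any of the early comparisons. Without WT library 1 at 0 h, EIF3D was called higher in WT cells at 3 h, and EIF3L at 3 and 6 h.

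The genes of the cap-binding complex eIF4F moved in opposite directions. The main scaffold EIF4G1 and its relative EIF4G2 (DAP5), which lacks the eIF4E-binding site, rose at 3 and 6 h, while the second scaffold EIF4G3 fell. EIF4G1 was at 399, 403 and 417 CPM at 0 h, 879.7, 896 and 1466 at 3 h, 908, 963 and 858 at 6 h and 531, 533 and 541 at 48 h in KO libraries. It was at 396, 543 and 489 CPM at 0 h, 908, 876 and 831 at 3 h, 891, 888 and 893 at 6 h and 551, 525 and 526 at 48 h in WT libraries. The early libraries did not overlap those at 0 h, and KO library 3 at 3 h was far above the others. EIF4G3 was at 117, 107 and 107 CPM at 0 h, 76.8, 76.8 and 101 at 3 h, 58.1, 60.3 and 57.3 at 6 h and 122, 116 and 128 at 48 h in KO libraries. It was at 134, 131 and 132 CPM at 0 h, 70.9, 70.8 and 65.8 at 3 h, 53.3, 47.3 and 50.7 at 6 h and 154, 147 and 124 at 48 h in WT libraries. Every EIF4G3 value at 3 and 6 h was below those at 0 and 48 h. The log2 change at 6 h was 1.31 ± 0.13 in KO and 1.10 ± 0.13 in WT for EIF4G1, 1.23 ± 0.12 in KO and 1.05 ± 0.12 in WT for EIF4G2 and -0.77 ± 0.08 in KO and -1.20 ± 0.08 in WT for EIF4G3. EIF4G2 was also higher at 48 h in both genotypes (0.48 ± 0.12 in KO and 0.29 ± 0.12 in WT). In WT cells that call was lost with RLE factors, CPM as deposited, no filter, DESeq2 or only these groups, and without WT library 1 or 2 at 48 h or WT library 1 or 3 at 0 h (adjusted p 0.0538 to 0.218).

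EIF4E itself, the cap-binding protein, was at 154 ± 2.50 CPM at 0 h, 134 ± 28.9 at 3 h, 168 ± 6.17 at 6 h and 163 ± 3.47 at 48 h in KO libraries and 197 ± 23.2 CPM at 0 h, 154 ± 1.53 at 3 h, 163 ± 5.58 at 6 h and 163 ± 14.7 at 48 h in WT libraries (mean ± SD, n = 3 each). With all libraries it was called, among the early and late comparisons, only in KO cells at 6 h (0.27 ± 0.12, adjusted p = 0.0498), a call lost whichever of the 6 libraries was left out (adjusted p 0.0691 to 0.145). Without WT library 1 at 0 h, EIF4E was called lower in WT cells at 3 and 48 h. Its relative EIF4E3, which binds the cap in an unusual way, fell at every later hour in both genotypes. It was at 40.9, 39.6 and 39.7 CPM at 0 h, 16.5, 17.9 and 14.3 at 3 h, 14.9, 14.7 and 13.5 at 6 h and 31.6, 28.9 and 26.9 at 48 h in KO libraries. It was at 38.2, 37.95 and 36.5 CPM at 0 h, 21.6, 20.7 and 20.8 at 3 h, 19.3, 16.8 and 18.6 at 6 h and 24.8, 26.5 and 16.8 at 48 h in WT libraries. All values at 0 h were above all later ones. EIF4E1B, known from oocytes and at 0.469 to 2.75 CPM here, fell as well, and EIF4E2 (4EHP), which represses bound mRNAs, rose in KO cells at 6 h (0.40 ± 0.10) and was not called in WT cells (0.16 ± 0.10). For EIF4E2 the difference between the KO and WT changes at 6 h was not called.

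Of the helicases, EIF4A2, the second eIF4A, fell and EIF4A3, the helicase of the exon junction complex in splicing rather than a scanning factor, rose. EIF4A2 was at 768, 777 and 761 CPM at 0 h, 451, 413 and 419 at 3 h, 338, 339 and 349 at 6 h and 426, 426 and 417 at 48 h in KO libraries. It was at 886, 798 and 786 CPM at 0 h, 448, 410.3 and 430.2 at 3 h, 339, 305 and 322 at 6 h and 432, 419 and 362 at 48 h in WT libraries. Every later library was below every 0 h library of its genotype, and at 48 h EIF4A2 was still lower in both (-0.83 ± 0.07 in KO and -1.004 ± 0.07 in WT). EIF4A3 changed by 1.64 ± 0.09 in KO and 1.38 ± 0.09 in WT at 6 h, with no overlap between the libraries of 6 and 0 h. EIF4B, which stimulates eIF4A, was at 2002, 1949 and 1910.0 CPM at 0 h, 1041, 1099 and 1098 at 3 h, 931, 982 and 974 at 6 h and 1743, 1674 and 1742 at 48 h in KO libraries. It was at 2257, 1356 and 1465 CPM at 0 h, 1073, 1085 and 1052 at 3 h, 929, 917 and 948 at 6 h and 1587, 1642 and 1370.1 at 48 h in WT libraries. EIF4B at 3 and 6 h was below all other libraries, and WT library 1 at 0 h was the highest of all. EIF4H, a smaller helper of eIF4A, rose instead (0.39 ± 0.09 in KO and 0.51 ± 0.09 in WT at 6 h).

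**Figure D2:**
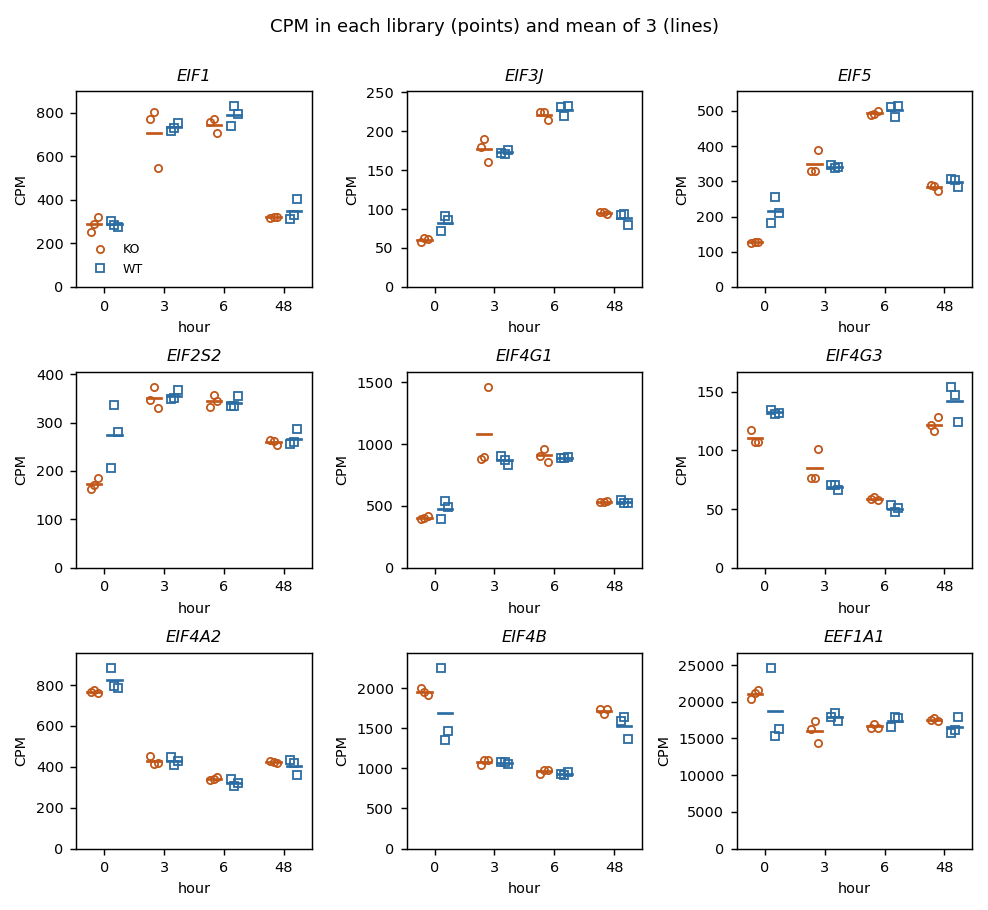
CPM (y axis, from 0) of 9 translation factor genes in each library (points) with the mean of 3 libraries (line), by hour of induction (x axis), KO left of WT. EIF1, EIF3J and EIF4G1 peak at 3 and 6 h, EIF4G3 and EIF4B dip there, and EEF1A1 stays between 14438 and 24676 CPM, its highest point being WT library 1 at 0 h.

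The binding proteins that keep eIF4E from eIF4G differed too. EIF4EBP1 was at 12.02, 15.4 and 17.7 CPM at 0 h, 41.8, 46.2 and 47.4 at 3 h, 53.97, 44.9 and 39.4 at 6 h and 22.4, 20.6 and 20.8 at 48 h in KO libraries. It was at 15.4, 35.3 and 24.3 CPM at 0 h, 36.5, 40.6 and 39.5 at 3 h, 55.8, 75.8 and 56.97 at 6 h and 19.5, 18.4 and 40.2 at 48 h in WT libraries. The early libraries lay above those at 0 h, and the WT libraries at 0 h and 48 h were widely spread. In WT cells the call at 3 h was lost without WT library 1 at 0 h (adjusted p 0.0596). The log2 change at 6 h was 1.75 ± 0.25, adjusted p = 2.1e-06 in KO cells and 1.57 ± 0.25, adjusted p = 1.22e-05 in WT cells. EIF4EBP2, a relative with higher CPM but a longer transcript, was at 316 to 340.4 CPM at 0 h, 359 to 402 at 3 h, 321 to 333 at 6 h and 439 to 469 at 48 h in KO libraries. It was at 345 to 373 CPM at 0 h, 328 to 338 at 3 h, 274 to 286 at 6 h and 353 to 479.6 at 48 h in WT libraries. It was higher at 48 h in both genotypes (0.51 ± 0.08 in KO and 0.27 ± 0.08 in WT). In WT cells that call was lost without WT library 1 or 2 at 48 h (adjusted p 0.0527 to 0.0543). Without WT library 1 at 0 h, EIF4EBP2 was called lower in WT cells at 6 h. EIF4EBP3, at 0.367 to 4.36 CPM and sharing most of its exon bases with a readthrough gene, was lower at 48 h (-0.87 ± 0.32 in KO and -0.93 ± 0.32 in WT), calls lost in KO cells without KO library 1 or 2 at 48 h or KO library 2 or 3 at 0 h (adjusted p 0.0618 to 0.0759) and in WT cells without WT library 1 or 2 at 48 h or WT library 1 at 0 h (adjusted p 0.0572 to 0.108). EIF4ENIF1 (4E-T), which carries eIF4E to the nucleus and to P-bodies, rose at every later hour in both. EIF4ENIF1 was at 24.4 to 25.96 CPM at 0 h, 32.9 to 41.9 at 3 h, 32.04 to 35.004 at 6 h and 30.2 to 32.1 at 48 h in KO libraries. It was at 24.97 to 27.9 CPM at 0 h, 33.6 to 35.5 at 3 h, 31.6 to 32.8 at 6 h and 29.2 to 37.2 at 48 h in WT libraries. 

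EIF5, whose product triggers GTP hydrolysis by eIF2 at the start codon, had the largest rise of all 66 genes at 6 h in KO cells. EIF5 (chr14:103333544-103345025, plus strand) was at 124, 127 and 129 CPM at 0 h, 329, 329.9 and 389 at 3 h, 487, 492 and 501 at 6 h and 291, 288 and 273 at 48 h in KO libraries. It was at 182, 256 and 209 CPM at 0 h, 346, 337 and 342 at 3 h, 512, 482 and 514 at 6 h and 307, 305 and 283 at 48 h in WT libraries. No later library overlapped a 0 h library of its genotype. The log2 change was 2.11 ± 0.09, adjusted p = 5.94e-15 in KO cells and 1.42 ± 0.09, adjusted p = 8.16e-12 in WT cells at 6 h, and 1.19 ± 0.09, adjusted p = 1.99e-10 in KO cells and 0.51 ± 0.09, adjusted p = 5.65e-05 in WT cells at 48 h. EIF6, which keeps the large subunit from joining too early, was at 67.2 to 77.003 CPM at 0 h, 67.2 to 108 at 3 h, 116 to 129 at 6 h and 71.1 to 73.7 at 48 h in KO libraries. It was at 72.4 to 87.1 CPM at 0 h, 101 to 106 at 3 h, 115 to 123 at 6 h and 64.9 to 96.6 at 48 h in WT libraries. It rose at 6 h (0.86 ± 0.15 in KO and 0.73 ± 0.15 in WT). EIF5B, which joins the subunits, rose in KO cells at 6 h (0.24 ± 0.09), a call lost with RLE factors, CPM as deposited or DESeq2 and without KO library 2 at 6 h or KO library 1 at 0 h (adjusted p 0.102 to 0.124). In WT cells EIF5B fell at 48 h (-0.52 ± 0.09), at 200.4 to 239 CPM against 274 to 385 CPM at 0 h. EIF5A, which carries the amino acid hypusine and frees stalled ribosomes, was at 376 to 436 CPM at 0 h, 729 to 939 at 3 h, 925 to 940.2 at 6 h and 479 to 486 at 48 h in KO libraries. It was at 419 to 657 CPM at 0 h, 827 to 924 at 3 h, 917 to 1076 at 6 h and 534 to 564 at 48 h in WT libraries. It changed by 1.33 ± 0.13 in KO and 1.07 ± 0.13 in WT at 6 h. Its relative EIF5A2, at 10.9 to 19.4 CPM, was at 14.2, 13.1 and 13.7 CPM in the KO libraries, against 19.1, 19.4 and 14.7 CPM in WT libraries at 48 h. It was higher than at 0 h in WT cells (0.54 ± 0.11, adjusted p = 0.000298) and not called in KO cells (0.07 ± 0.11). The difference between these 2 changes was not called.

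With all libraries the main elongation GTPases were not called in either direction. EEF1A1 was at 20404, 21141 and 21622 CPM at 0 h, 16276, 17359 and 14438 at 3 h, 16478, 17017 and 16442 at 6 h and 17552, 17781 and 17368 at 48 h in KO libraries. It was at 24676, 15368 and 16361 CPM at 0 h, 17913, 18504 and 17382 at 3 h, 16519.7, 17944 and 17826 at 6 h and 15732, 16160.0 and 17905 at 48 h in WT libraries. Neither EEF1A1 nor EEF2 was called in any of the 13 comparisons, and the 95% interval of the change at 6 h was -0.55 to 0.17 in KO and -0.25 to 0.47 in WT cells for EEF1A1. EEF2 was at 2995 to 3376 CPM at 0 h, 2581 to 3106 at 3 h, 2409 to 2570.2 at 6 h and 2817 to 2972 at 48 h in KO libraries. It was at 2232 to 3328 CPM at 0 h, 2554 to 2888 at 3 h, 2469.5 to 2831 at 6 h and 2506 to 3112 at 48 h in WT libraries. For EEF2 the interval at 6 h was -0.50 to 0.06 in KO and -0.07 to 0.49 in WT cells. Without WT library 1 at 0 h, EEF2 was called higher in WT cells at 3 h (0.39 ± 0.12, adjusted p = 0.00633), 6 h (0.39 ± 0.12, adjusted p = 0.00565) and 48 h (0.29 ± 0.12, adjusted p = 0.0383), whereas EEF1A1 was not. EEF1A2, the form of eEF1A known from muscle and neurons, was at 18.7, 24.1 and 23.8 CPM at 0 h, 10.2, 12.5 and 9.79 at 3 h, 12.4, 10.4 and 9.43 at 6 h and 9.38, 8.01 and 8.85 at 48 h in KO libraries. It was at 28.04, 14.5 and 16.3 CPM at 0 h, 15.7, 15.6 and 14.8 at 3 h, 13.7, 15.5 and 15.4 at 6 h and 9.04, 8.13 and 10.5 at 48 h in WT libraries. EEF1A2 was lower at 48 h in both genotypes (-1.28 ± 0.18 in KO and -0.99 ± 0.18 in WT). In the eEF1B exchange complex, EEF1B2 and EEF1D rose at 6 h (0.75 ± 0.15 in KO and 0.68 ± 0.15 in WT for EEF1B2, 0.43 ± 0.11 in KO and 0.38 ± 0.11 in WT for EEF1D). With CPM as deposited EEF1D was not called in WT cells (adjusted p 0.112). EEF1E1, a partner of the tRNA synthetase complex, was at 12.9, 13.1 and 14.7 CPM at 0 h, 17.2, 16.3 and 4.43 at 3 h, 14.8, 14.1 and 16.8 at 6 h and 12.5, 11.9 and 11.4 at 48 h in KO libraries. It was at 13.5, 28.4 and 24.6 CPM at 0 h, 14.95, 15.4 and 16.1 at 3 h, 15.6, 14.3 and 16.3 at 6 h and 11.4, 12.6 and 6.86 at 48 h in WT libraries, with WT library 3 at 48 h far from its mates. It fell in WT cells at 48 h (-1.04 ± 0.33, adjusted p = 0.0107), a call lost without WT library 3 at 48 h or WT library 2 at 0 h (adjusted p 0.062 to 0.0724). EEF2K, the kinase that slows elongation by phosphorylating eEF2, fell at every later hour in both genotypes, with log2 changes of -0.28 ± 0.11 in KO and -0.65 ± 0.11 in WT at 48 h. The call at 48 h in KO cells was lost without KO library 1, 2 or 3 at 48 h or KO library 1 or 2 at 0 h (adjusted p 0.0616 to 0.109). 

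The lysine methyltransferases of eEF1A and eEF2 went separate ways at low levels. EEF1AKMT3 was at 4.83, 5.04 and 4.59 CPM at 0 h, 1.77, 1.18 and 1.49 at 3 h, 1.78, 1.58 and 1.51 at 6 h and 3.37, 3.08 and 2.996 at 48 h in KO libraries. It was at 6.84, 3.94 and 4.32 CPM at 0 h, 1.58, 1.41 and 1.58 at 3 h, 1.74, 1.41 and 1.36 at 6 h and 4.41, 4.36 and 2.48 at 48 h in WT libraries. It had the largest fall of the 66 genes at 3 h, -1.47 ± 0.19 in KO and -1.40 ± 0.19 in WT. EEF1AKMT1 was higher at 48 h (0.998 ± 0.19 in KO and 1.01 ± 0.19 in WT) at 1.18 to 5.11 CPM. EEF1AKMT2 was lower at 6 h (-0.54 ± 0.13 in KO and -0.51 ± 0.13 in WT) and higher at 48 h (0.49 ± 0.13 in KO and 0.40 ± 0.13 in WT), the call at 48 h in WT cells being lost without WT library 1 or 2 at 48 h or WT library 3 at 0 h (adjusted p 0.0618 to 0.106). On these log2(CPM + 0.25) values the pseudocount understates the changes of such low genes.

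Between the genotypes, 10 of the 66 genes were lower in KO cells at 0 h and 0 higher, against 7.16% and 8.22% of all genes. In either direction 15.2% of the 66 were called, close to the 15.4% of all genes. In edgeR on the recovered reads 0 were higher too, in DESeq2 2, and 23 of the 66 genes had an unadjusted p under 0.05 in limma. The 10 genes were EIF2S1, EIF2S2, EIF2B1, EIF2B2, EIF3J, EIF3M, EIF4A1, EIF4A3, EIF5 and EEF2KMT. EIF5 was at 124, 127 and 129 CPM in KO libraries and at 182, 256 and 209 CPM in WT libraries, a log2 difference of -0.72 ± 0.09, adjusted p = 1.42e-05. EIF2S2 was at 163, 171 and 185 CPM in the KO libraries, against 206, 336 and 281 CPM in the WT libraries (-0.60 ± 0.12, adjusted p = 0.0014). In both genes the KO libraries lay close together and below all WT libraries. EEF2KMT, the methyltransferase of eEF2, was at 6.73, 8.09 and 7.87 CPM in the KO libraries, against 10.3, 24.1 and 19.7 CPM in the WT libraries (-1.11 ± 0.18, adjusted p = 0.000254). EIF3J differed by -0.41 ± 0.09, adjusted p = 0.0032. EIF4A1, with its uncertain counts, was at 4.60, 4.52 and 4.22 CPM in the KO libraries, against 6.06, 11.2 and 12.7 CPM in the WT libraries (-1.02 ± 0.24, adjusted p = 0.00503). WT library 1 was the WT library nearest to the KO libraries in EIF5, EIF2S2, EEF2KMT, EIF3J and EIF4A1.

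These calls at 0 h depended on the fit across all 8 groups. Of the 10, 6 held in each of the 6 fits with 1 library of the groups left out, and 9 were lost when the fit held the 0 h libraries only, EIF5 being the exception (0.682% of all genes were higher and 0.268% lower in that fit). All 10 were also called without WT library 1, and further genes with them: 21 genes were then lower and 9 higher in KO cells, against 16% and 16.9% of all genes in that fit. The 9 higher genes were EEF1A1, EEF1A2, EEF2, EIF2A, EIF2AK3, EIF2D, EIF3L, EIF4B and EIF4H. Without it the difference was 0.53 ± 0.12, adjusted p = 0.00126 for EEF2, 0.51 ± 0.08, adjusted p = 3.87e-05 for EIF4B and 0.44 ± 0.15, adjusted p = 0.0261 for EEF1A1, against 0.35 ± 0.13, 0.28 ± 0.12 and 0.23 ± 0.17 with all libraries. Among the newly lower genes were EIF5A (-0.50 ± 0.12, adjusted p = 0.00176), EIF4E (-0.42 ± 0.12, adjusted p = 0.0127) and EIF4EBP1 (-0.93 ± 0.24, adjusted p = 0.00487).

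**Figure D3:**
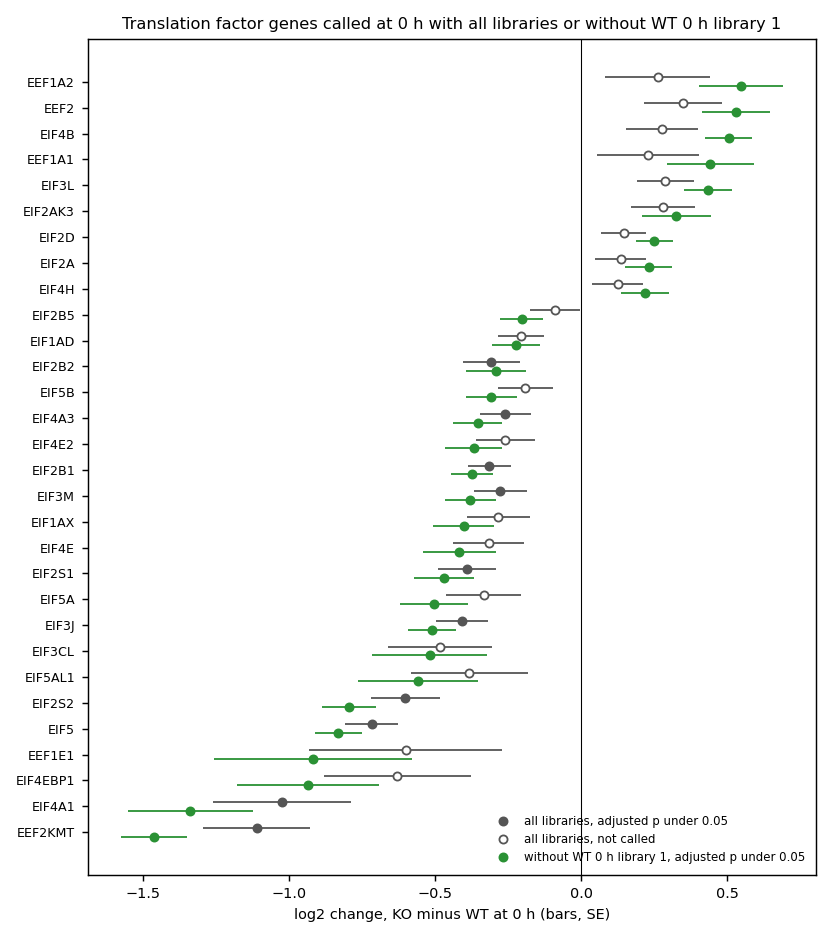
Log2 difference KO minus WT at 0 h (x axis, bars are SE) for the 30 genes called with all libraries or without WT library 1; grey, all libraries; green, without WT library 1; filled, adjusted p under 0.05. The 10 genes called with all libraries are all on the left, and EEF1A2, EEF2, EIF4B and EEF1A1 are farthest to the right without that library.

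At 3 and 6 h limma called 0 of the 66 genes between KO and WT, as did edgeR and DESeq2 on the recovered reads. In all genes 0.776% were higher and 1.96% lower in KO cells at 3 h, and 0.504% and 2.01% at 6 h. At an unadjusted p under 0.05 there were 8 genes at 3 h and 4 at 6 h. With only the 6 h libraries in the fit, 4 genes were higher in KO cells (EIF2AK2, EIF2AK3, EIF4EBP2 and EIF4G3) and 5 lower (EEF1A2, EEF2K, EIF3F, EIF4E3 and EIF4EBP1), against 5.98% and 9.68% of all genes. EIF5, lower at 0 h, was at 487, 492 and 501 CPM in the KO libraries, against 512, 482 and 514 CPM in WT libraries at 6 h, with an interval of -0.22 to 0.15 for the log2 difference. For EIF2S2 the interval at 6 h was -0.24 to 0.25, and for EIF3J -0.23 to 0.13. At 48 h, 3 genes were higher in KO cells (7.59% of all genes) and 0 lower (4.73%), with 9 of the 66 at an unadjusted p under 0.05 and 0 lower in edgeR and 1 in DESeq2. With CPM as deposited the counts were 2 higher and 1 lower. Without the 3 libraries that stood apart, 18 were higher and 5 lower, against 13.3% and 10.4% of all genes.

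The 3 genes higher in KO cells at 48 h were EIF4E3, EIF2AK4 and EIF3E. EIF4E3 was at 31.6, 28.9 and 26.9 CPM in the KO libraries, against 24.8, 26.5 and 16.8 CPM in the WT libraries (0.42 ± 0.12, adjusted p = 0.0197). EIF2AK4 was at 147, 145 and 144 CPM in the KO libraries, against 119, 117 and 110.1 CPM in the WT libraries (0.37 ± 0.10, adjusted p = 0.0175). EIF3E, a subunit at the edge of eIF3, was at 765, 782 and 722 CPM in the KO libraries, against 645, 634 and 539 CPM in the WT libraries (0.36 ± 0.12, adjusted p = 0.0481). The groups did not overlap in any of the 3, and WT library 3, which stood apart, was the lowest in each. All 3 calls were lost when a library was left out: EIF4E3 and EIF2AK4 without WT library 3, KO library 1 or KO library 2 (adjusted p 0.0650 to 0.168 and 0.0552 to 0.0639), and EIF3E without any 1 of the 6 (0.0664 to 0.187). At 48 h the summed mesoderm markers were also lower in KO cells, and the summed stem cell and endoderm markers higher, as given above, and their part in these differences was not tested.

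Whether the change over time itself differed was tested as an interaction, the change in KO minus the change in WT. At 3 h, 7 of the 66 genes had a positive interaction and 0 a negative one (3.72% and 5.35% of all genes), at 6 h 4 and 0 (3.06% and 5.42%) and at 48 h 8 and 0 (4.45% and 3.55%). edgeR gave 0 negative ones as well, DESeq2 gave 1 at 3 h, 0 at 6 h and 1 at 48 h, and 17, 15 and 17 genes had an unadjusted p under 0.05 at 3, 6 and 48 h. The absence of negative ones ended without WT library 1 at 0 h, with 16 positive and 10 negative at 3 h (12.1% and 13.1% of all genes), 15 and 5 at 6 h (11.2% and 13.5%) and 11 and 5 at 48 h (13.9% and 11.9%). Among the negative ones were then EEF1A1 at 3 h (-0.62 ± 0.20, adjusted p = 0.0263) and EEF2 at 3 h (-0.50 ± 0.16, adjusted p = 0.0207) and 6 h (-0.62 ± 0.16, adjusted p = 0.00572). With all libraries EIF5, EIF2S2 and EEF2KMT were called at each hour. For EIF5 the interaction was 0.73 ± 0.13, adjusted p = 0.000535 at 3 h, 0.68 ± 0.13, adjusted p = 0.00112 at 6 h and 0.68 ± 0.13, adjusted p = 0.0013 at 48 h. For EIF2S2 it was 0.57 ± 0.17, 0.61 ± 0.17 and 0.60 ± 0.17, and for EEF2KMT 0.93 ± 0.26, 1.001 ± 0.26 and 1.14 ± 0.26. All of these contain the difference at 0 h: the values of EIF5 and EIF2S2 at 3, 6 and 48 h, listed above, overlapped between KO and WT at each of these hours. EEF2KMT did not overlap at 3 h, with 18.4 to 18.5 CPM in KO and 20.6 to 21.1 CPM in WT libraries. Nor did it at 6 h, with 15.7 to 16.5 CPM in KO and 16.9 to 17.7 CPM in WT libraries, though neither difference was called. At 48 h it overlapped (8.79 to 10.7 CPM in KO and 9.22 to 11.2 CPM in WT libraries). EIF4G3 had a positive interaction at 3 and 6 h (0.50 ± 0.12, adjusted p = 0.0097 and 0.44 ± 0.12, adjusted p = 0.024). The log2 change at 3 h was -0.29 ± 0.08 in KO and -0.79 ± 0.08 in WT cells. Without KO library 3 at 3 h, which stood apart, the change in KO cells was -0.48 ± 0.07 and the interaction 0.36 ± 0.10, adjusted p = 0.0227. Of the calls, 2 of 7, 2 of 4 and 3 of 8 held in every fit with 1 library left out, and only EIF5 held at all 3 hours in these fits and in the fits on the groups compared.

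Of 11 pairs of related factors, some had other shares at 6 h than at 0 h and some had nearly the same, though no test passed the adjustment. The share of EIF4G3 in the summed CPM per kb of EIF4G3 and EIF4G1 was 5.74, 5.62 and 5.97% in KO libraries at 6 h and 21.8, 20.2 and 19.6% at 0 h. In WT libraries it was 5.38, 4.82 and 5.12% at 6 h and 24.3, 18.6 and 20.4% at 0 h. At 48 h it was 17.9, 17.1 and 18.4% in KO and 21.02, 21.03 and 18.3% in WT libraries. Thus every library at 6 h was below every library at 0 and 48 h. The share of EIF4E3 against EIF4E was 9.63, 8.91 and 8.50% in KO libraries at 6 h and 23.2, 23.1 and 23.3% at 0 h, and in WT libraries 12.2, 10.8 and 11.3% and 20.6, 17.2 and 16.8%. The share of EIF4EBP2 against EIF4EBP1 was 46.5, 50.8 and 53.4% in KO libraries at 6 h and 79.9, 74.7 and 71.6% at 0 h, and in WT libraries 41.9, 33.7 and 41.4% and 75.9, 59.8 and 68.1%. Both shares were lower at 6 h in every library. EIF1B made up 30.9, 31.2 and 30.2% of the EIF1 pair in KO libraries at 6 h and 38.1, 38.7 and 36.1% at 0 h, and 30.03, 28.99 and 29.7% and 41.9, 40.4 and 40.6% in WT libraries. By contrast, the share of EIF4G2 against EIF4G1 averaged 84.1% in KO libraries at 6 h and 84.8% at 0 h, and 83.7% and 84.1% in WT libraries. The share of EIF2S3B against EIF2S3 averaged 0.183% in KO libraries at 6 h and 0.161% at 0 h, and 0.16% and 0.182% in WT libraries. Exact permutation tests of 3 against 3 libraries cannot go below p = 0.1. That value was reached in 33 of 66 two-sided tests over 11 pairs, and adjusted over the 66 tests (Benjamini and Hochberg) it was 0.2.

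**Figure D4:**
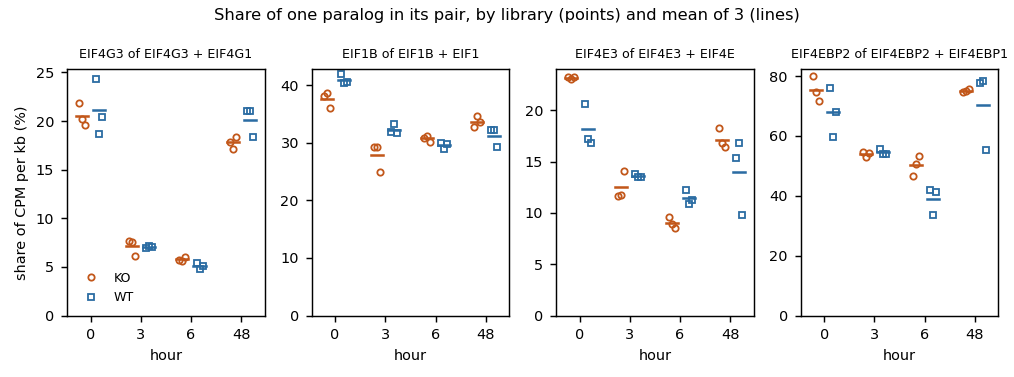
Share of 1 paralog in the summed CPM per kb of its pair (y axis, percent, from 0) in each library (points) with the mean of 3 (line), by hour (x axis), KO left of WT. The share of EIF4G3 is between 4.82% and 7.66% at 3 and 6 h and between 17.1% and 24.3% at 0 and 48 h.

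Several translation factor mRNAs are known to begin with a terminal oligopyrimidine tract (TOP), a C followed by a run of pyrimidines through which LARP1 and the kinase complex mTORC1 control their translation. RefSeq start sites (GRCh38.p14) were matched for 54 of the 68 genes, 52 of them tested. At 13 of the 54 (24.1%), a start site began with C and at least 4 more pyrimidines, read on the strand of the gene, against 5.14% of all 27305 genes in the table. They were EEF1A1, EEF1B2, EEF2, EIF2A, EIF2D, EIF2S3, EIF2S3B, EIF3D, EIF3F, EIF3K, EIF3M, EIF4A2 and EIF4B. The start sites of a few are shown with 12 bases before the start and 18 from it, the pyrimidine run at the start in capitals.
EEF1A1, chr6:73521015-73521044, minus strand: gccgtgaacgttCTTTTTCgcaacgggttt
EEF2, chr19:3985446-3985475, minus strand: gacgtcagcgttCTCTTCCgccgtcgtcgc
EEF1B2, chr2:206159883-206159912, plus strand: gtctcttcgggtCCTTTTTCCTCTCTTCag
EIF3F, chr11:7987325-7987354, plus strand: cgcttccgcctcCTTCTTTCTCgacaagat
EIF4A2, chr3:186783565-186783594, plus strand: gggcgccgctgtCTTTTCagtcgggcgctg
EIF4B, chr12:53006444-53006473, plus strand: cctcatccgggtCTTTTgcgttctctttcc
For comparison, the 4 genes with the largest rises at 6 h among those with a matched start site, EIF4EBP1 not being matched, had starts of another kind, with no capitals.
EIF3J, chr15:44537135-44537164, plus strand: ctccgccgtgctaactcctcgctagctctc
EIF5, chr14:103334225-103334254, plus strand: gcggcgttgttcagtcagagcgagaacatt
EIF1, chr17:41688873-41688902, plus strand: caccgcccctctgccccagtcactgagccg
EIF4A3, chr17:80147111-80147140, minus strand: ctcggcagcggcacagcgaggtcggcagcg
A match describes these letters at an annotated start, not the start used in these cells.

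At 6 h the 13 genes with such a start had a median log2 change of -0.14 in KO and 0.11 in WT cells, against 0.39 and 0.46 for the 39 tested genes without it. Among the 13, 6 rose and 4 fell in KO cells, and 5 rose and 4 fell in WT cells. Among the 39, 24 rose and 11 fell in KO cells, and 21 rose and 10 fell in WT cells. The largest rise among the 13 was 0.75 in KO and 0.68 in WT cells (EEF1B2), against 2.11 (EIF5) and 1.65 (EIF3J) among the 39. The largest fall among the 13 was that of EIF4A2, -1.02 in KO and -1.17 in WT cells. At 48 h the medians were 0.00 in KO and 0.05 in WT cells, against 0.11 and 0.06. These are descriptions of unequal lists, without a test. With all libraries, 0 of the 13 genes were higher and 1 lower in KO cells at 0 h, and 0 and 7 of the 39. Without WT library 1, 7 of the 9 genes higher in KO cells at 0 h had a matched start, 5 of them TOP-like. Of the 21 lower genes 17 had one, 1 of them TOP-like. WT library 1 had the highest WT values at 0 h of EEF1A1, EEF2 and EIF4B. Leaving it out therefore raises their difference, and no TOP pattern between genotypes was tested.

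**Figure D5:**
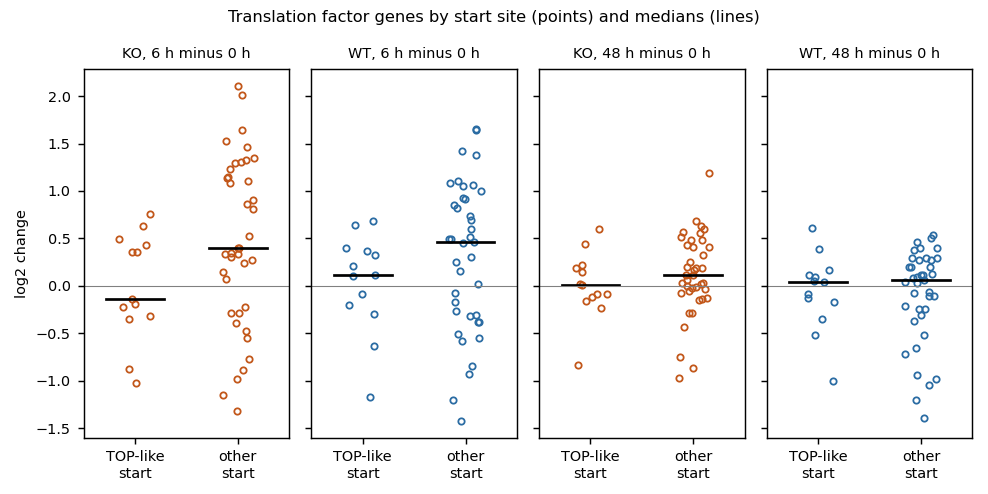
Log2 change from 0 h (y axis) of the 52 tested genes with a matched start site (points), by TOP-like or other start (x axis), with medians (lines), for KO and WT cells at 6 h and at 48 h. At 6 h the medians are -0.14 and 0.39 in KO and 0.11 and 0.46 in WT cells, and no point with a TOP-like start exceeds 0.75.

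The palindrome CACGTG, the E-box bound by MYC and related factors, was searched in the 250 bases before and 50 after each start, where it reads the same on both strands. It was present for 13 of the 54 genes (24.1%) and for 8.77% of all genes. EIF4E, a known MYC target, held it at 225 and 72 bases before its start, in capitals here.
EIF4E, chr4:98929331-98929380, minus strand: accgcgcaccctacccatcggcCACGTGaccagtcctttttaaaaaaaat
EIF4E, chr4:98929178-98929227, minus strand: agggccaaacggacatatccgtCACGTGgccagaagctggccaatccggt
At 6 h the median log2 change was 0.27 in KO and 0.30 in WT cells for the 13 genes with it, against 0.35 and 0.33 for the 39 without. These medians are given without a test, and a match or its absence in this window says nothing of the factor.

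Other genes of the pathway, from a list of 41 outside the named families, were all tested. At 6 h, 25 rose and 9 fell in KO cells, and 26 rose and 9 fell in WT cells, against 35.5% and 33.4% of all genes in KO and 33.2% and 29.2% in WT cells. These shares of all genes also stand beside the counts at 6 h that follow. The calls of the 41 genes are given from the fit with all libraries only, without the runs that left libraries out. Around eIF2, 5 of 7 genes of the integrated stress response rose and 1 fell in KO cells at 6 h, and 6 rose and 1 fell in WT cells. ATF4, the transcription factor translated when eIF2 is phosphorylated, was higher in WT cells at 48 h (0.59 ± 0.12, adjusted p = 0.000363), as was PPP1R15B, which directs dephosphorylation of eIF2 (0.36 ± 0.07, adjusted p = 0.000269). Mean ATF4 was 210 CPM at 0 h, 631 at 3 h and 398 at 48 h in KO libraries. In WT libraries these means were 289, 612 and 422 CPM. Mean PPP1R15B went from 82.5 CPM at 0 h to 142 at 48 h in KO libraries and from 111 to 141 in WT libraries. At 0 h PPP1R15B was lower in KO cells (-0.40 ± 0.07, adjusted p = 0.000895) and its stress-induced relative PPP1R15A higher (0.67 ± 0.17, adjusted p = 0.0106). The WT libraries of PPP1R15A at 0 h were widely spread (20.7 ± 9.32 CPM, mean ± SD). Of the 8 genes of termination, recycling and rescue, 7 rose in KO and 6 in WT cells at 6 h, with 0.72 and 0.61 as the medians of the 8. At 0 h the release factor ETF1 (-0.36 ± 0.10, adjusted p = 0.0124) and the recycling factor ABCE1 (-0.38 ± 0.10, adjusted p = 0.0116) were lower in KO cells.

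Of the 41 genes, 3 were higher and 9 lower in KO cells at 0 h, and 3 were higher at 48 h, against the shares of all genes given above. Higher at 48 h were the poly(A)-binding proteins PABPC1 (0.49 ± 0.12, adjusted p = 0.00705) and PABPC4 (0.46 ± 0.12, adjusted p = 0.0124) and the TOP mRNA regulator LARP1 (0.31 ± 0.10, adjusted p = 0.0362). LARP1 was at 406 ± 5.96 CPM in KO cells and 338 ± 29.996 CPM in WT libraries at 48 h (mean ± SD, n = 3 each). Among the 13 genes of mTORC1 and MNK signalling, TSC1, an inhibitor of mTORC1, was higher in KO cells at 0 h (0.54 ± 0.11, adjusted p = 0.00264) and the kinase RPS6KB1 lower (-0.29 ± 0.08, adjusted p = 0.02). Of the genes that modify eIF5A and eEF2, DPH3 (-0.76 ± 0.14, adjusted p = 0.000703) and DPH2 (-0.41 ± 0.09, adjusted p = 0.00447), which make the diphthamide of eEF2, were lower in KO cells at 0 h. DOHH, which completes hypusine on eIF5A, was higher at 48 h in WT cells (1.14 ± 0.26, adjusted p = 0.000696). The WT libraries of DOHH were widely spread at 48 h (10.95 ± 5.40 CPM, mean ± SD). So were those of PABPC1 at 48 h (1203 ± 206 CPM) and of TSC1 at 0 h (70.4 ± 17.8 CPM). The poly(A)-binding partner PAIP1 was higher (0.61 ± 0.07, adjusted p = 1.75e-07) and PAIP2B, which counters it, lower (-0.60 ± 0.09, adjusted p = 6.16e-06) in WT cells at 48 h. LARP1 (-0.70 ± 0.10, adjusted p = 1.65e-06) and ABCE1 (-0.47 ± 0.10, adjusted p = 0.000313) were lower there, and the kinase RPS6KB2 higher (0.58 ± 0.10, adjusted p = 4.18e-05). From 0 to 48 h the KO means of DOHH, PAIP1, PAIP2B, LARP1 and RPS6KB2 moved in the same directions as in WT. Mean ABCE1 in KO libraries was 173 CPM at 0 h and 188 CPM at 48 h.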

How the data were processed

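HUES6 RBPMS KO and WT cells at 4 hours of mesoderm induction gave 24 mRNA libraries (TruSeq stranded), 3 in each of 8 groups taken from the sample titles. The authors deposited a table of gene values and a table of transcript counts. The gene values are CPM (counts per 1000000 reads in genes), since each deposited column sums to 1000000, and they are not divided by gene length. In the submitters' processing notes hg38 and DESeq2 are named, whereas the aligner is not given in the sources used here, nor is the annotation. Column names in the deposited gene file stand 1 cell to the left of their values, and the columns were read with this undone. Against the deposited transcript counts, which served only for this check, 23 of 24 libraries then matched best with their namesake (r 0.604 to 0.760), and 0 did with the header as it stands. The exception, WT library 3 at 48 h, matched WT library 1 of the same hour best (r 0.664, against 0.613 with its namesake). CPM steps gave whole reads for 100% of values within 0.1 reads, 29896358 to 50451908 per library, and a count of 3 reads corresponds to 0.0595 to 0.1003 CPM. Gene symbols came from GENCODE 29, which matched 90.5% of the IDs.

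Low genes were removed by edgeR 4.0.16 (filterByExpr, 10 reads in a library and 15 in all), leaving 19835 genes. CPM divided by TMM factors, plus a pseudocount of 0.25, was log2-transformed and fitted for all 8 groups in limma 3.58.1 (R 4.3.3) with a trend, 16 residual degrees of freedom and two-sided p-values adjusted by Benjamini and Hochberg over all genes of a comparison. A gene is called at an adjusted p under 0.05. The 13 comparisons were each later hour against 0 h in KO and in WT, KO against WT at each hour, and the difference between the changes. The fit was tested on simulated data for KO against WT at 0 h. It found 67.5% of the changes of 1.5-fold, 90% of those of 2-fold and 100% of those of 4-fold. Of its 177 calls 11 were false. No simulated library was made to stand apart, unlike WT library 1 at 0 h, so the simulation does not cover that case. Alternatives were RLE factors, CPM as deposited, no filter, a filter of 5 CPM in 3 libraries, a pseudocount of 1, a replicate block, only the groups compared, each library left out, edgeR and DESeq2 1.42.0 on the recovered reads, and, chosen after seeing the data, leaving out the 3 libraries that stood apart.

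The genes, their lists and the pathway list of 41 genes were chosen with earlier results of these data known. Genes named with values are, per comparison, the called members with the largest changes in each direction and at least 5 CPM in a group, with the core factors, paralog pairs, eIF2 alpha kinases and eIF4E-binding proteins whatever they did. Others were added after their values were seen. Of the pathway list, the 2 genes of each set with the smallest adjusted p in KO against WT at 0 and 48 h and in WT at 48 h against 0 h are named where called. Start sites and promoters are those of RefSeq (GRCh38.p14), and gene positions those of GENCODE 29 on hg38. Paralog shares were compared by exact permutation tests (scipy 1.17.1). Same-numbered libraries of different groups did not deviate together (84 pairs, r -0.18 to 0.22), so the numbers were not taken as pairs.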

Additional observations from a re-analysis of the deposited data

Results flagged for a closer look

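For 10 genes the change from 0 h differed between KO and WT cells by the interaction test in limma (adjusted p under 0.05), given here as the change in KO minus the change in WT on the log2 scale. EIF5 had 0.73 at 3 h, 0.68 at 6 h and 0.68 at 48 h. EIF2S2 had 0.57 at 3 h, 0.61 at 6 h and 0.60 at 48 h. EEF2KMT had 0.93 at 3 h, 1.001 at 6 h and 1.14 at 48 h. EIF4G3 had 0.50 at 3 h and 0.44 at 6 h. EIF3J had 0.42 at 3 h and 0.55 at 48 h. EIF4A1, whose counts are uncertain, had 1.11 at 3 h and 1.27 at 48 h. EIF2B1 had 0.37 at 3 h, and EIF1AX had 0.54, EIF3M 0.44 and EIF5B 0.44 at 48 h.

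Of these 19 results, 7 held whichever library of the 4 groups was left out: EIF5 at each hour, EEF2KMT at 6 and 48 h, EIF4G3 at 3 h and EIF3J at 48 h. All 19 share the 0 h libraries, among them WT library 1, which stood apart from its mates.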

How the results depend on the processing

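Of the 285 calls of the 66 genes over the 13 comparisons, 0 reversed direction under any alternative run. Calls were lost with RLE factors in 18 cases, CPM as deposited 31, no filter 34, a pseudocount of 1 CPM 1, the replicate block 4, only the groups compared 57, edgeR 4, DESeq2 17 and without the 3 libraries apart 4, and 0 of the 256 still tested with the 5 CPM filter. The cause of these losses was not tested, except that the fit on the groups compared rests on fewer libraries. Counts that moved by more than 1.5 times follow as higher and lower. KO against WT at 0 h gave 1 higher with RLE factors and with the 5 CPM filter, 2 higher with DESeq2, 16 lower with CPM as deposited, and 1 lower (EIF5) with only the groups compared. KO against WT at 6 h gave 4 higher and 5 lower with only the groups compared, and at 48 h 1 lower with CPM as deposited and with DESeq2. Fitted alone, WT at 48 h against 0 h gave 4 higher and KO at 48 h against 0 h 19 lower, and the interactions gave 1 higher at 3 h, 1 lower at 6 h and 2 higher at 48 h. With no filter the interactions gave 3 higher at 3 h and 4 higher at 48 h, and with DESeq2 1 lower at 3 h, 8 higher at 6 h and 1 lower at 48 h.

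Without WT library 1 at 0 h, KO library 3 at 3 h and WT library 3 at 48 h together, KO against WT gave 14 higher and 29 lower at 0 h (23% and 23.8% of all genes), 1 and 2 at 3 h (2.88% and 5.99%), 4 and 3 at 6 h (5.48% and 6.47%), and 18 and 5 at 48 h (13.3% and 10.4%). WT at 48 h against 0 h then gave 20 higher and 28 lower (33.9% and 29.9%), and the interactions 22 and 13 at 3 h (18.3% and 19.6%), 25 and 12 at 6 h (20.1% and 19.8%), and 29 and 10 at 48 h (20.5% and 17.8%). With each library of the groups left out in turn, KO against WT ranged from 0 to 9 higher and 6 to 21 lower at 0 h, 0 to 2 lower at 3 h, and 0 to 2 higher and 0 to 1 lower at 48 h. KO at 48 h against 0 h ranged from 6 to 9 lower, and the interactions from 2 to 16 higher and 0 to 10 lower at 3 h, 2 to 15 and 0 to 5 at 6 h, and 3 to 11 and 0 to 5 at 48 h. The upper ends at 0 h and of the interactions were without WT library 1 at 0 h. The replicate block gave 1 lower in the interaction at 3 h and otherwise moved no count by more than 1.5 times. Of 84 pairs of same-numbered libraries 8 correlated over 0.1 (median 0.001), and 10 of 24 libraries correlated best with their own number. EEF1G and EEF1E1-BLOC1S5 lay below the depth limit of 3 reads in every library (at most 0.0204 and 0.0258 CPM). As 99.9% and 100% of their exon bases also belong to another gene, these counts do not give their level. Their changes were not detectable.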
